A study of Mus musculus with 163 samples.

Results

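The neurons described here are the hypothalamic POMC neurons with little *Agrp*, split by their level of mRNA for the neuropeptide galanin (*Gal*). The cells were chosen from their own values: those with *Agrp* below 10 log2RPM (log2 of reads per M reads, RPM) are the Agrp-low cells, of which 48 had *Gal* at 5 RPM or more and were called Gal-positive, and 67 had less and were called Gal-negative. The remaining 48 sorted neurons had *Agrp* at or above 10 log2RPM, are referred to as Agrp-high and were used only for comparison, so that these 3 groups together make up all GFP-positive hypothalamic cells analysed here. All cells came from mice of the strain labelled C57/BL6 Tg(Pomc-EGFP)1Low, which carry enhanced GFP under *Pomc* regulatory sequences, and the study used young adult males fed ad libitum. Neurons were dissociated from the mediobasal hypothalamus with papain, sorted singly on GFP and sequenced as 1 library per cell, so the sorted cells are those in which the transgene was active. No cell analysed here was treated, and the GFP-negative and pituitary cells that the study also sequenced were not analysed here. The labels tie no cell to an animal or a plate, and all cells were therefore treated as 1 sample. Values are therefore described with their spread over cells (SD), and no p-value was computed.

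Galanin is a secreted peptide found in many hypothalamic neurons and in the pituitary, where oestrogen is a well known stimulus of its expression. It acts through a family of G protein-coupled receptors, and injection of galanin into the hypothalamus increases food intake. POMC neurons release melanocortin peptides that reduce feeding, and they are known to contain further transmitters and peptides in varying combinations.

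*Gal* (ENSMUSG00000024907, chromosome 19 of GRCm38, 3409918 to 3414472) was the gene used for the split, so its own values are a description of how the sets were drawn. In the 48 Gal-positive cells the lowest value was 2.65 log2RPM, the median 6.36 and the highest 10.69, with a mean of 6.46 ± 2.08 (SD over cells). These values rested on 42 to 13621 reads per cell, with a median of 659. In the 67 Gal-negative cells *Gal* ran from -0.91, the value that stands for 0 reads, to 2.12 log2RPM, with a median of -0.12. *Gal* reads were at 0 in 7 of the Gal-negative cells, and the other 60 held some, up to 36 reads. The Gal-positive cell nearest to the cut-off of 2.32 log2RPM (5 RPM) stood at 2.65 and the next at 3.59 log2RPM, and the nearest Gal-negative cells stood at 2.12 and 1.98 log2RPM. Few cells thus lay close to the line.

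Gal-positive cells made up 41.7% of the Agrp-low cells (95% interval 32.6% to 51.3%, exact Clopper-Pearson). Such intervals cover counting error only, and reads without molecular identifiers are not independent molecules. In the Agrp-high cells 15 of 48 were Gal-positive (31.25%, 95% interval 18.7% to 46.3%), and their *Gal* had a median of 4.08 and a highest value of 6.31 log2RPM. The intervals of both classes overlapped. Among the Agrp-low cells, those numbered 1 to 66 in the labels held 15 Gal-positive cells of 34, those numbered 67 to 98 held 15 of 27 (55.6%) and those numbered 99 and above held 18 of 54 (33.3%). Of the Agrp-low cells with *Pomc* at or above its median of 8.54 log2RPM, 26 of 58 were Gal-positive, against 22 of 57 of those below it. With the line moved to 1 RPM, 77 of the Agrp-low cells (66.96%) counted as positive, and with it at 10 RPM, 47 (40.9%).

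**Figure D1:**
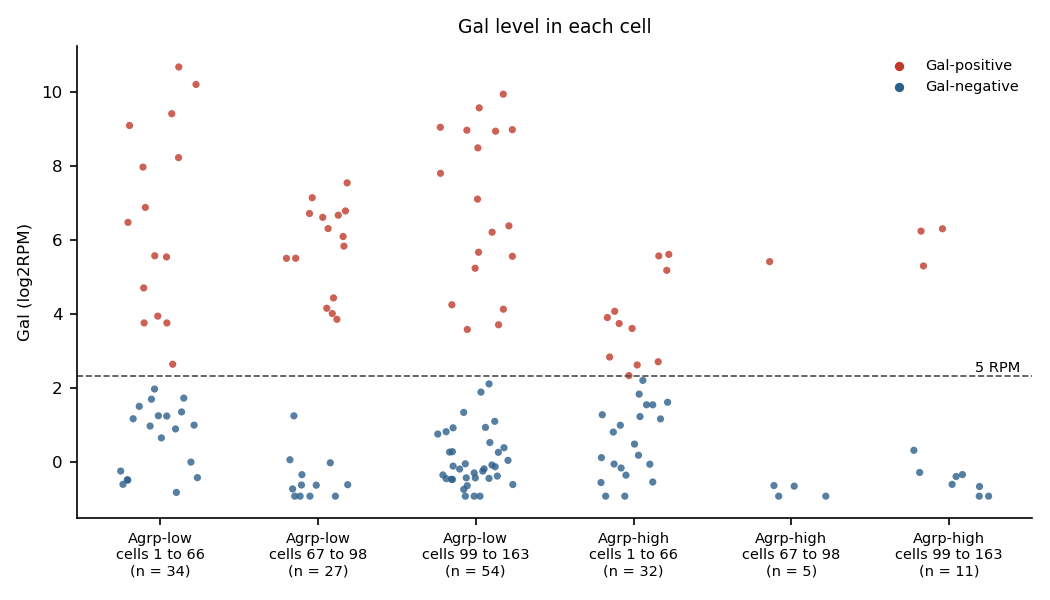
*Gal* in log2RPM (y axis) for each cell (points), by *Agrp* class and by range of cell numbers in the labels (x axis). Red points are Gal-positive and blue points Gal-negative, and the dashed line is 5 RPM. Positive cells were present in each column, and all values above 6.31 log2RPM lay in Agrp-low cells.

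Depth did not separate the sets when all ranges of cell numbers were pooled. The median was 8.09 M reads in both, with ranges of 1.59 to 41.9 M in Gal-positive and 1.46 to 38.3 M in Gal-negative cells. By range of cell numbers the medians were 7.46 and 7.64 M in cells 1 to 66 and 8.17 and 8.11 M in cells 67 to 98. In cells 99 and above they differed more, at 7.22 M in Gal-positive and 9.20 M in Gal-negative cells. A gene was counted as detected in a cell at 5 RPM or more, and 6873 ± 876 genes were detected per Gal-positive cell and 6626 ± 906 per Gal-negative cell (SD over cells). Cells numbered 1 to 66 held more *Agrp*: the median *Agrp* of the Gal-positive Agrp-low cells was 5.10 log2RPM there, 1.18 in cells 67 to 98 and 3.39 in cells 99 and above. For this reason each difference below was also computed inside each of the 3 ranges of cell numbers. The labels do not say what the ranges are.

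Outside *Gal*, 12186 genes were compared. The difference given for a gene is the mean log2RPM of the Gal-positive minus that of the Gal-negative Agrp-low cells. It was at least 1 for 255 genes (2.09%) and -1 or less for 160 genes (1.31%), 415 in all (3.41%), with a median over all genes of 0.04 and a range of -1.85 to 2.61. A gene is called higher or lower below when it reached that size of 1. Counts of list members given below are to be read beside these shares of all genes, 2.09% higher and 1.31% lower. The lists hold few genes each and were chosen with earlier results of these data known, and their counts were not tested. The SD over cells of most genes named here was between 2 and 4 log2RPM, which in most cases was as large as or larger than the difference, and the cells of both sets overlapped for every gene named here other than *Gal*. The counts are therefore sizes in these cells, and whether they would recur in other animals was not tested.

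The oestrogen receptor gene *Esr1* showed the widest gap in the share of cells. *Esr1* (ENSMUSG00000019768, chromosome 10, 4611592 to 5005614) encodes oestrogen receptor alpha, a nuclear receptor that binds DNA when it holds oestradiol. In Gal-positive cells its lowest value was -0.38, its median 6.33 and its highest 8.95 log2RPM, and in Gal-negative cells these were -0.91, 2.12 and 8.38 log2RPM. It was detected in 42 of 48 Gal-positive cells (87.5%, 95% interval 74.8% to 95.3%) and in 30 of 67 Gal-negative cells (44.8%, 95% interval 32.6% to 57.4%). The means were 5.49 ± 2.47 and 3.17 ± 2.86 log2RPM, a difference of 2.32. The gap lay in how many cells reached 5 RPM more than in the level of those that did. The median where *Esr1* was detected was 6.62 in Gal-positive and 6.12 log2RPM in Gal-negative cells. The difference was 1.72, 2.01 and 3.01 in the 3 ranges of cell numbers, in that order. It was 2.37 in the cells with more *Pomc* and 2.25 in those with less. With all cells thinned to 4 M reads, *Esr1* was detected in 85.4% of 41 Gal-positive and 44.8% of 58 Gal-negative cells. When the *Gal* line was set at 1 RPM, so that cells with a few *Gal* reads joined the positive set, the difference was 0.71.

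Read the other way, 42 of the 72 Agrp-low cells with *Esr1* detected were Gal-positive (58.3%, 95% interval 46.1% to 69.8%). Of the 43 in which it was not detected, 6 were (13.95%, 95% interval 5.30% to 27.9%). Within the 3 ranges, Gal-positive cells numbered 12 of 20, 14 of 20 and 16 of 32 of the cells with *Esr1*, and 3 of 14, 1 of 7 and 2 of 22 of those without. Among Gal-positive cells, *Gal* had a median of 6.65 log2RPM in the 42 with *Esr1* and of 5.62 in the 6 without, and the latter did not exceed 6.22 log2RPM. Across the 48 Gal-positive cells, the Spearman correlation of *Esr1* with *Gal* was 0.29, a description over cells that share the scaling of each library.

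A further 3 genes of the oestrogen and prolactin list of 12 measured genes reached a size of 1, in both directions. Of all genes, 3.41% reached it in either direction. *Greb1*, an early oestrogen target, was detected in 20 of 48 Gal-positive (41.7%, 95% interval 27.6% to 56.8%) and 9 of 67 Gal-negative cells (13.4%, 95% interval 6.33% to 23.97%), with medians of 0.59 and -0.24 log2RPM and highest values of 7.72 and 6.92. Most cells of both sets thus had it below 5 RPM, though only 4 Gal-positive and 18 Gal-negative cells stood at 0 reads. The difference of means was 1.59, with 0.54, 2.71 and 1.72 in the 3 ranges. *Esr1* and *Greb1* were found together in 19 Gal-positive and 8 Gal-negative cells. *Prlr*, the prolactin receptor, was common to both sets, with medians of 7.83 and 6.76 log2RPM and detection in 43 and 54 cells. Its difference was 1.03, with 2.03 in the cells with more *Pomc* and -0.10 in those with less. *Jak2*, a kinase that acts below the prolactin and leptin receptors, was lower at -1.15, with medians of 0.92 and 2.37 log2RPM. The progesterone receptor *Pgr* (0.29) and *Stat3*, a transcription factor that acts after *Jak2* (0.03), were among the 8 members that reached no such size. The median difference over the 12 genes was 0.17, against 0.04 over all genes, so the list as a whole was not shifted in the way its receptor was. *Rerg*, a small GTPase first described as oestrogen-regulated, was not on the list but was among the 12 genes with the largest positive difference (1.95; detected in 28 and 19 cells).

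Because *Esr1* and *Greb1* were each detected in a larger share of the Gal-positive cells, 2 stretches of sequence are shown. They are the 250 bases before the RefSeq start of *Gal* and before the first of 2 RefSeq starts of *Greb1* (GRCm38.p6). Each is written 5′ to 3′ on the strand of its gene. Whether the receptor acts on either gene in these cells was not tested. Capitals mark the half-site of the oestrogen response element, GGTCA, or its reverse complement TGACC.
Gal, chr19:3414545-3414794, minus strand: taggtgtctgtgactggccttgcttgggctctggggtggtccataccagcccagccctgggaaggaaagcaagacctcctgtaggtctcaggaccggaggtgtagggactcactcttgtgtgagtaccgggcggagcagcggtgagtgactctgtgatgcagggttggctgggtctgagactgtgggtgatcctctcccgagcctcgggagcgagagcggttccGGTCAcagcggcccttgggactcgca
Greb1, chr12:16800887-16801136, minus strand: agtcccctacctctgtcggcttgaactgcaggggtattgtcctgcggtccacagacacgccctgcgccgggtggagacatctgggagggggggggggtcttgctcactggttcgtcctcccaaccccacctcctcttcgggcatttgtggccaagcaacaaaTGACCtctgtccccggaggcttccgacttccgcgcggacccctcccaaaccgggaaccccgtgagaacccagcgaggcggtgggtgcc

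The windows of both *Esr1* starts and of *Ecel1*, which are not shown, held no half-site. In the windows shown it began 26 bases before the start of *Gal* and 88 bases before that of *Greb1*. The window of the second *Greb1* start, also not shown, held 2, at 194 and 85 bases. The half-site was common: 35.2% of all 32851 promoter windows of that length held it on one strand or the other. Of the 12 genes with the largest positive difference, 10 matched a RefSeq gene, and 4 of their 13 windows held the half-site. The full palindrome, GGTCA followed after 3 bases by TGACC, was in none of the windows of the 12 and in 21 of all 32851. A match is a run of letters and not a bound site.

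Of 35 measured peptide and hormone receptors, 3 were higher, namely *Npy1r*, *Npy5r* and *Mc3r*, while 2.09% of all genes were higher. *Npy1r* (ENSMUSG00000036437, chromosome 8, 66697421 to 66706798) encodes the NPY receptor Y1, an inhibitory receptor for the peptide of AgRP neurons. Its lowest, median and highest values were 0.86, 6.62 and 9.64 log2RPM in Gal-positive and 0.12, 2.93 and 9.46 in Gal-negative cells. It was detected in 42 of 48 (87.5%) and 37 of 67 (55.2%, 95% interval 42.6% to 67.4%) cells, and its difference was 1.79. Where *Npy1r* was detected, its median was 6.89 log2RPM in Gal-positive and 6.91 in Gal-negative cells. The sets thus differed in the share of cells in which it reached 5 RPM. The difference was 1.19, 2.13 and 1.72 in the 3 ranges. It was 0.70 when cells that held at least 3 markers of some other cell type were left out, and 0.84 with the *Gal* line at 1 RPM.

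*Npy5r*, which encodes the Y5 receptor and lies beside *Npy1r* on chromosome 8, had medians of 5.88 and 1.71 log2RPM and a difference of 1.18. Both receptors were found in 29 Gal-positive (60.4%) and 25 Gal-negative cells (37.3%). *Mc3r* (chromosome 2, 172248491 to 172251114), which encodes a melanocortin receptor that can act as an autoreceptor on POMC neurons, was detected in 25 of 48 (52.1%, 95% interval 37.2% to 66.7%) and 19 of 67 cells (28.4%, 95% interval 18.01% to 40.7%). Its medians were 3.27 and 0.16 log2RPM and its difference 1.39, with 1.48, 0.99 and 1.70 in the 3 ranges. Of the other receptors of the list, 1 was lower and 31 reached no size of 1, and the list median was 0.16. The lower one was *Nr3c1*, the glucocorticoid receptor, with medians of 5.80 and 6.40 log2RPM, detection in 37 and 62 cells and a difference of -1.36. The orexin receptor *Hcrtr2* came near the size at 0.90. The insulin receptor *Insr* (-0.37, detected in 29 and 42 cells) was also among the 31. Of receptors on other lists, the leptin receptor *Lepr* (0.12, 10 and 10 cells) reached no size of 1. Neither did the NPY autoreceptor *Npy2r* (-0.05) or the serotonin receptor *Htr2c* (-0.06, 13 and 21 cells).

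**Figure D2:**
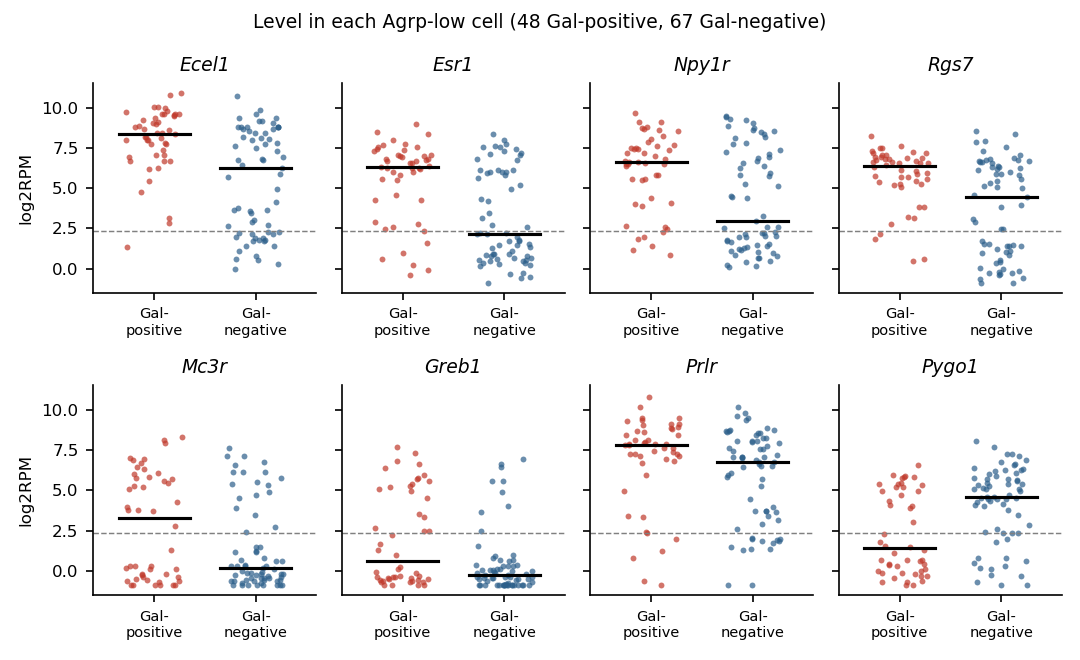
Level in log2RPM (y axis) of 8 genes in each Gal-positive (red) and Gal-negative (blue) Agrp-low cell. Black bars are medians and dashed lines 5 RPM, and the sets overlap for every gene, with most Gal-positive cells above the line for *Ecel1*, *Esr1*, *Npy1r* and *Rgs7* and the Gal-negative cells divided about it.

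*Ecel1* (ENSMUSG00000026247, chromosome 1, 87147654 to 87156521) had the largest difference of all, 2.61. It encodes a neuronal membrane peptidase of the endothelin-converting enzyme family that is induced by nerve injury. It ran from 1.32 to 10.93 log2RPM with a median of 8.37 in Gal-positive cells and from -0.01 to 10.73 with a median of 6.23 in Gal-negative cells. It was detected in 47 of 48 Gal-positive cells (97.9%, 95% interval 88.9% to 99.9%) and 47 of 67 Gal-negative cells (70.1%, 95% interval 57.7% to 80.7%). A single Gal-positive cell was thus found among the 21 Agrp-low cells in which *Ecel1* was not detected. The difference was 1.43, 3.22 and 2.70 in the 3 ranges, and 1.28 with the *Gal* line at 1 RPM. *Gfra1*, which encodes the receptor for the growth factor GDNF, was also higher at 1.70, with -0.18 in cells 1 to 66 and 2.52 and 2.22 in the others. Galanin is itself induced by nerve injury, and the injury and regeneration list of 12 measured genes is therefore summarised, with some members as examples. In it 2 genes were higher, none lower, and the median was 0.15, while 2.09% of all genes were higher. *Atf3*, the transcription factor that defines the injury response, stood at -0.69 (14 and 23 cells), *Jun* at -0.61, *Gap43*, a protein of growing axons, at 0.66 and *Stmn2* at 0.38. The *Atf3* difference was -0.54, 0.68 and -0.26 in the 3 ranges. In the cells with more *Pomc*, *Atf3* stood at -2.12, *Jun* at -1.55 and *Gap43* at 1.45. In those with less *Pomc* the values were 0.68, 0.45 and -0.23.

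The transcripts of *Ecel1*, *Esr1* and *Npy1r* were often found in the same cells. All 3 were detected together in 38 of 48 Gal-positive cells (79.2%, 95% interval 65.01% to 89.5%) and in 18 of 67 Gal-negative cells (26.9%, 95% interval 16.8% to 39.1%). *Esr1* with *Ecel1* were found in 42 and 26 cells, and *Esr1* with *Mc3r* in 23 and 14. These genes were chosen for their differences, so the counts describe the cells and add no support.

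The remaining genes among the 12 with the largest positive differences had varied functions. *Rgs7*, which speeds the shut-off of Gi and Go proteins, was detected in 44 of 48 and 40 of 67 cells with medians of 6.37 and 4.47 log2RPM and a difference of 2.02, although this was 0.37 in cells 1 to 66 and 4.42 in cells 67 to 98. *Senp8*, a protease that removes the ubiquitin-like protein NEDD8, had a difference of 2.08 and was detected in 38 (79.2%) and 25 (37.3%) cells. *Syndig1l*, a relative of a synapse-differentiation gene, had a difference of 2.15 and was found in 26 and 14 cells. *Mad2l1*, of the spindle checkpoint, had 2.10 overall but -0.07 in cells 67 to 98, and was the only gene of the 12 without the same sign in all 3 ranges. The others were *Gdpd2*, a glycerophosphodiester phosphodiesterase (2.08), *Optn*, an autophagy receptor (1.91), *Edem2*, of the degradation of misfolded proteins (1.91), *Rundc3b* (1.80) and *Rbms3*, an RNA-binding protein (1.79). A difference above 0 in each range was seen for 11 of these 12 genes and for 16.9% of all genes, where the genes had been chosen on the same cells. One below 0 in each range was seen for 11 of the 12 genes with the largest negative differences, described below, and for 9.68% of all genes.

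The share of cells with the gene was at least 20 percentage points higher in Gal-positive cells for 179 genes (1.47%) and lower for 49 genes (0.402%). Among the 6 largest gains were those of *Esr1*, *Senp8*, *Cep89*, of the centrosome (32 and 22 cells), *Syndig1l* and *B930094E09Rik* (35 and 27 cells).

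**Figure D3:**
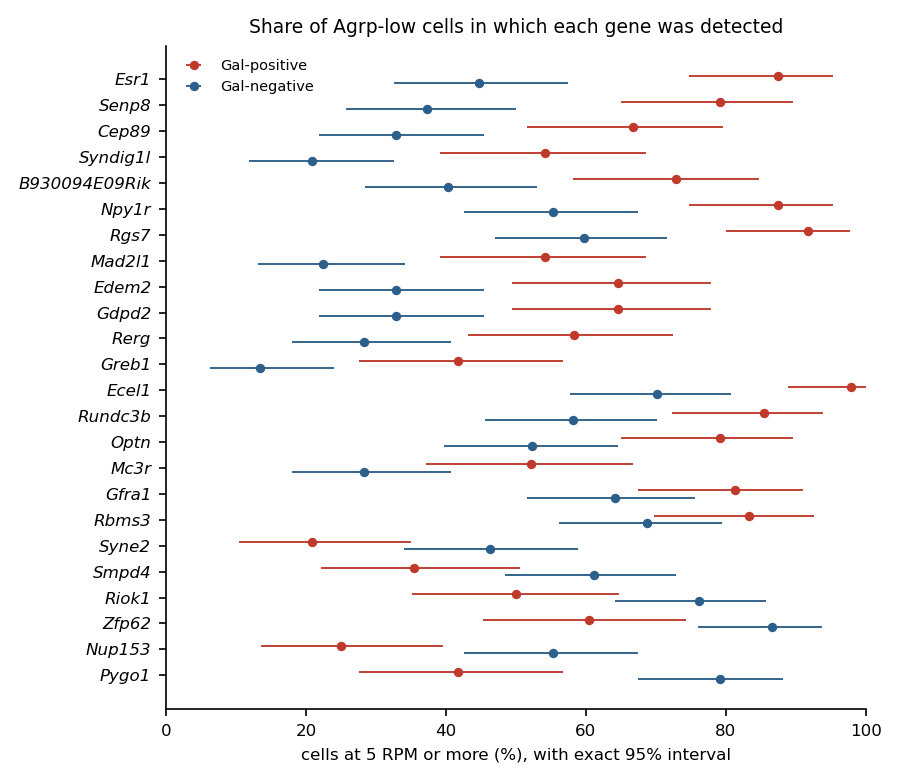
Percent of Agrp-low cells (x axis, with exact 95% intervals as bars) in which each gene (y axis) was detected at 5 RPM or more, for the 48 Gal-positive (red) and 67 Gal-negative cells (blue). Intervals of the 2 sets lie apart for *Esr1* (74.8% to 95.3% against 32.6% to 57.4%), *Senp8* and *Pygo1* and overlap for *Rbms3*.

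The genes lower in Gal-positive cells had varied functions. *Pygo1* (ENSMUSG00000034910, chromosome 9, 72925644 to 72952181), a nuclear partner of beta-catenin in Wnt signalling, had the largest negative difference, -1.85. Its lowest, median and highest values were -0.91, 1.40 and 6.55 log2RPM in Gal-positive and -0.91, 4.61 and 8.08 in Gal-negative cells. It was detected in 20 of 48 (41.7%, 95% interval 27.6% to 56.8%) and 53 of 67 cells (79.1%, 95% interval 67.4% to 88.1%), and in those cells its medians were alike at 5.28 and 5.30 log2RPM. The difference was -1.36, -2.32 and -1.94 in the 3 ranges. *Nup153*, of the nuclear pore, was detected in 12 and 37 cells (-1.82), *Syne2*, which links the nuclear envelope to the cytoskeleton, in 10 and 31 (-1.77), and *Zfp62*, a zinc finger gene, in 29 and 58 (-1.59). *Plxdc2*, a membrane protein, differed by -1.83, *Rgl1*, an exchange factor for Ral proteins, by -1.59, *Dbndd2* by -1.56, *Rev3l*, the catalytic subunit of a DNA polymerase that bypasses damage, by -1.48, *Cryl1*, a sugar acid dehydrogenase, by -1.47, and *Plcb1*, a phospholipase that acts after Gq-coupled receptors, by -1.46. *Riok1*, a kinase of ribosome assembly (24 and 51 cells), and *Smpd4*, a sphingomyelinase (17 and 41 cells), completed the 6 genes whose share of cells was lowest against the Gal-negative set. The 160 lower genes lay over longer stretches of the genome than the 255 higher ones, with a median locus of 64.4 kb against 27.1 kb, and 33.3 kb over all genes.

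**Figure D4:**
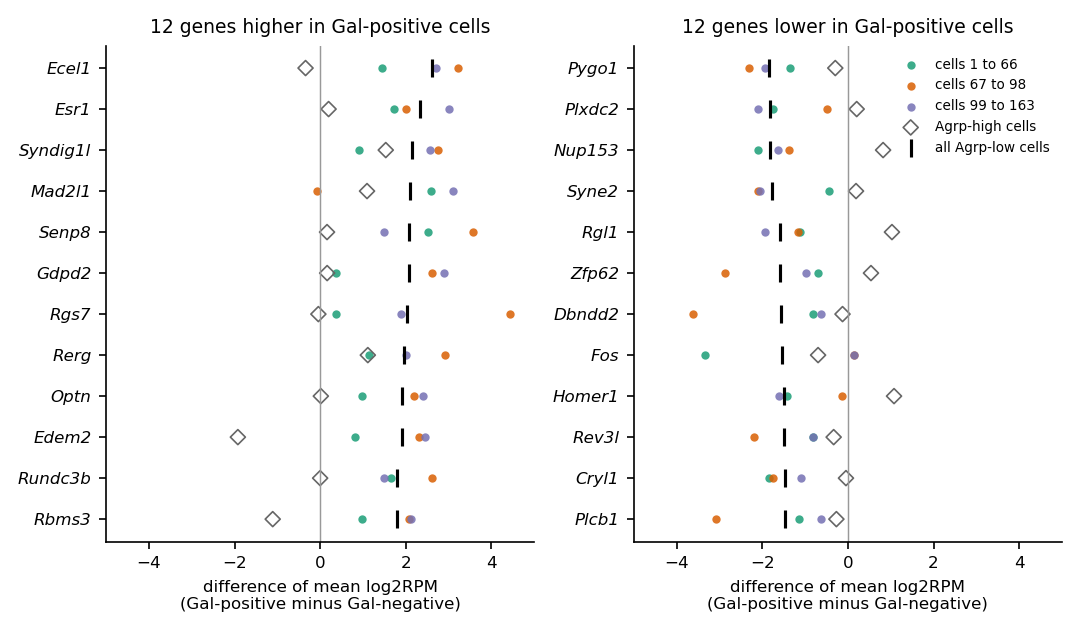
Difference of mean log2RPM, Gal-positive minus Gal-negative (x axis), for the 12 genes with the largest difference in each direction (y axis). Black ticks are all Agrp-low cells, coloured points the 3 ranges of cell numbers and open diamonds the Agrp-high cells, and the ranges lie on one side of 0 for 11 of the 12 genes in each panel, with *Mad2l1* and *Fos* as the exceptions.

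*Fos* and *Homer1* were the remaining 2 of the 12 lower genes. *Fos*, which neurons switch on when active, was detected in 17 Gal-positive and 33 Gal-negative cells, with medians of 0.29 and 2.31 log2RPM and a difference of -1.54. The difference was -3.34 in cells 1 to 66 and 0.14 in each of the other ranges, and the mean of the 3 was -1.02. Under the 12 alternative settings described at the end, the *Fos* difference ran from -2.04 to -0.003, and it was -1 or less in 8 of them. In cells 1 to 66 *Fos* was detected in 4 of 15 Gal-positive and 11 of 19 Gal-negative cells. *Egr1*, another immediate early gene, had a difference of -1.34, with -1.42, -0.17 and -0.39 in the 3 ranges, and 0.28 with the *Gal* line at 1 RPM. Of 14 immediate early genes these 2 were lower, none was higher and 12 stood below 0, with a median of -0.65. Of all genes, 1.31% were lower and 53.9% stood above 0. The list median was -0.69 in cells 1 to 66 and 0.03 and 0.08 in the later ranges, and it was -1.85 in cells with more *Pomc* and 0.43 in those with less. *Homer1*, a scaffold of the postsynaptic density, differed by -1.50.

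Genes of POMC neuron identity and peptide processing were present in both sets. *Pomc* was detected in 47 of 48 Gal-positive and 67 of 67 Gal-negative cells, from 1.01 to 15.49 log2RPM with a median of 8.65 and from 2.71 to 16.06 with a median of 7.74. Its difference of 1.14 was 2.43, 1.94 and -0.17 in the 3 ranges. *Cartpt*, which encodes the CART peptide that POMC neurons release with melanocortins, had medians of 8.20 and 4.76 log2RPM, detection in 46 and 62 cells and a difference of 1.65. This was 0.76, 2.86 and 0.84 in the 3 ranges, and it was 2.46 in the cells with more *Pomc* against 0.31 in those with less. *Pcsk1*, the convertase that makes the first cuts in the POMC precursor, was higher at 1.20 (41 and 45 cells), and its Spearman correlation with *Gal* within Gal-positive cells was 0.39. These were the 3 higher genes of 20, none was lower, and the list median was 0.20, while 2.09% of all genes were higher. *Cpe*, which trims the peptides after cutting, was found in every cell of both sets with a difference of 0.02, and *Pcsk2*, the second convertase, stood at -0.22.

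The 13 genes of AgRP neurons gave no difference of size 1, which 3.41% of all genes reached, and their median was 0.11. *Agrp* itself stood at -0.23 (29 and 46 cells) and *Npy*, its partner peptide, at -0.22 (40 and 61 cells). Among 20 other neuropeptide genes, *Pdyn*, the dynorphin precursor, had medians of 7.54 and 5.64 log2RPM and a difference of 1.28 (35 and 44 cells), and *Nppc*, the precursor of C-type natriuretic peptide, a difference of 1.16 (21 and 18 cells). The *Nppc* difference was 3.37 in cells 67 to 98 and at most 0.55 in the other ranges, and was -0.15 without the cells that held at least 3 markers of some other cell type. *Tac2*, the neurokinin B precursor (-0.81; 8 and 25 cells), *Sst*, somatostatin (-0.59; 15 and 27 cells), and *Nmb*, neuromedin B (0.86; 14 and 10 cells) did not reach the size. The list median was 0.08. The galanin receptors and the related peptides were not analysed here.

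Genes of both fast transmitters were found in each set. *Slc17a6*, the vesicular glutamate transporter, was detected in 31 and 42 cells with a difference of 0.09, *Gad1*, a GABA-synthesising enzyme, in 46 and 55 with 0.68, and *Gad2* in 40 and 58 with -0.17. *Gad1* and *Slc17a6* were found in the same cell in 30 of 48 Gal-positive (62.5%) and 35 of 67 Gal-negative cells (52.2%). None of the 6 genes of the list reached the size, which 3.41% of all genes did, and the median was -0.04. Of 6 catecholamine and acetylcholine genes, *Slc18a2*, the vesicular monoamine transporter, was higher at 1.30 (21 and 18 cells). *Th*, the enzyme that starts catecholamine synthesis, was detected in 2 cells of each set, and *Dbh*, which makes noradrenaline, in 8 and 2.

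In the remaining lists few genes reached the size, which 3.41% of all genes did. Of 20 genes of Gi and GIRK signalling, the pathway that galanin and NPY receptors use, *Rgs7* was higher and *Adcy2*, an adenylyl cyclase, lower (-1.38; 10 and 28 cells), with a median of -0.01. The channel subunits *Kcnj3* (0.62) and *Kcnj6* (-0.28) reached no size of 1. Of 31 other channels, the potassium channel *Kcnd3* (1.10) and the T-type calcium channel *Cacna1g* (1.28) were higher and none was lower. None of 15 monoamine and cannabinoid receptors reached the size, with *Cnr1*, the cannabinoid receptor, at -0.88, and none of 21 hypothalamic transcription factors did, with *Isl1*, which POMC neurons need, at 0.81 (43 and 51 cells). Among 12 pan-neuronal and housekeeping genes, *Syt1*, the calcium sensor of synaptic vesicles, was lower at -1.23, with -2.31, -1.61 and -0.10 in the 3 ranges, while *Snap25*, of the same release machinery, was detected in every cell and stood at -0.14.

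**Figure D5:**
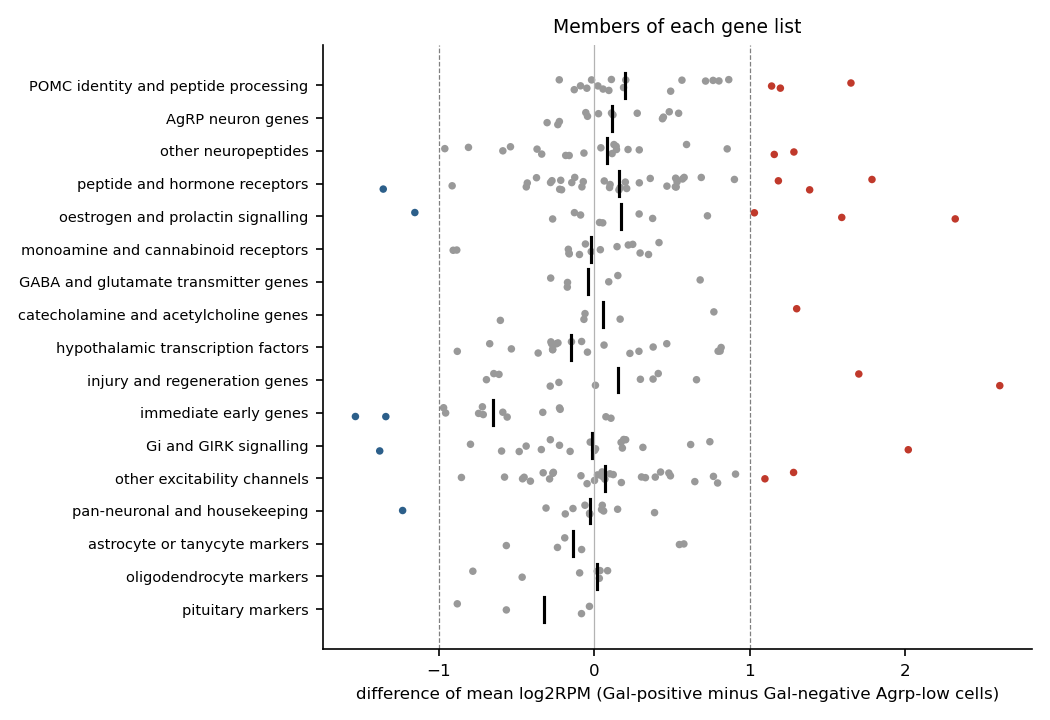
Difference of mean log2RPM, Gal-positive minus Gal-negative Agrp-low cells (x axis), for each measured member (point) of the gene lists (y axis). Black bars are list medians and dashed lines mark a size of 1, and members past it are red or blue, with *Ecel1* at 2.61 farthest to the right and *Fos* at -1.54 farthest to the left.

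Markers of other cell types were found in cells of both sets. None of 6 astrocyte or tanycyte, 7 oligodendrocyte or 4 pituitary markers reached a size of 1, which 3.41% of all genes did. Their medians were -0.14, 0.02 and -0.32. The mean log2RPM over the oligodendrocyte markers ran from -0.81 to 7.51 in Gal-positive and from -0.72 to 10.96 in Gal-negative cells, and *Mbp*, a myelin protein, was detected in 36 and 49 cells. The mean over the astrocyte or tanycyte markers ran from -0.86 to 6.37 and from -0.61 to 5.76 log2RPM. That over the pituitary markers ran from -0.78 to 7.63 and from -0.82 to 6.83 log2RPM. Of the cells, 19 of 48 Gal-positive and 32 of 67 Gal-negative had 3 or more markers of 1 other cell type, and without them *Esr1* differed by 2.07 and *Ecel1* by 2.09. Microglial and vascular markers were not analysed here.

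Within the Gal-positive cells, the level of *Gal* had little relation to the 12 higher and 12 lower genes. Over the 48 cells, the Spearman correlation with *Gal* ran from -0.14 to 0.29 for the 12 higher and from -0.15 to 0.21 for the 12 lower genes. It was above 0 for 8 of the 12 higher and 10 of the 12 lower genes. For the 6 genes with the largest loss in share it was above 0 in all 6 (0.02 to 0.38), opposite to their difference. For the 6 with the largest gain it was above 0 in 3 (-0.17 to 0.29). These values are descriptions over cells that share the scaling of each library.

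The same line on *Gal* was also drawn in the Agrp-high cells. Their 15 Gal-positive cells held no *Esr1* at 5 RPM (0 of 15, with an exact 95% interval up to 21.8%), and it was detected in 1 of the 33 Gal-negative cells. *Greb1* was likewise found in 0 of 15 and 1 of 33, and *Gdpd2* in 1 of each. *Ecel1* was common there, in 15 of 15 and 32 of 33 cells, and its difference there was -0.34. *Npy1r* was detected in 5 of 15 Gal-positive and 19 of 33 Gal-negative cells, with a difference of -0.31. Of the 12 genes highest in Gal-positive Agrp-low cells, 7 were above 0 in the Agrp-high cells, where 54.6% of all genes were, and 3 reached a size of 1, namely *Syndig1l* (1.53), *Rerg* (1.11) and *Mad2l1* (1.09). The other 5 were below 0, among them *Edem2* at -1.92 (detected in 5 of 15 and 21 of 33 cells). *Rbms3* was another, with means of 4.27 in Gal-positive and 5.38 log2RPM in Gal-negative cells. Of the 12 lowest, 6 were below 0 and 6 above, beside the 54.6% of all genes above 0. Among the 6 above, 2 reached a size of 1, namely *Homer1* (1.08) and *Rgl1* (means of 4.36 and 3.33 log2RPM). Whether the 2 classes differ in these respects was not tested, since neither has replicates.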

How the data were processed

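The authors deposited log2 values (log2RPM) in 1 table of all cells and 12187 genes, each at 5 RPM or more in at least 7 cells. Per the submitters' processing notes, CASAVA 1.7, TopHat2 2.0.11, Cufflinks 2.2.1, edgeR and limma were used with GRCm38, and the study's methods name a batch correction made with edgeR and limma. Which batches it used is not given in the sources used here, and whether the deposited values carry it was not tested. They include a prior count, so 0 reads stand at 0.532 RPM. Differences are thus on a log2(RPM + prior) scale and understate those of low genes. Reads and depth were worked out from the spacing of low values, and 99.3% of values up to 20 reads came within 0.1 of a whole read. Shallow cells give the least certain detection. Doublets were limited only by the sorting gate, and no caller was run. No pair of cells correlated above 0.784, so none was treated as a repeat.

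Means, SDs over cells and shares with exact Clopper-Pearson 95% intervals were computed in Python 3.11.15 (numpy 2.4.6, pandas 2.3.3, scipy 1.17.1, matplotlib 3.10.9), and the scripts were tested on simulated data. Genes named are *Gal*, the 12 with the largest difference each way among genes detected in 30% or more of the higher set, the 6 with the largest difference in share each way, and members of 20 gene lists as examples. The split, the members and the lists were chosen with earlier results of these data known. Alternatives were other *Gal* and *Agrp* lines, pseudocounts of 0.1 and 5 RPM, gene and cell filters, rescaling, thinning to 4 M reads (7 Gal-positive and 9 Gal-negative shallower cells left out) and means within ranges of cell numbers or of *Pomc*. Promoter windows are from RefSeq (GRCm38.p6). Some genes that this rule names are not reported here.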

Additional observations from a re-analysis of the deposited data

How the results depend on the processing

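The Gal-positive share kept within its interval except with the *Gal* line at 1 RPM (66.96%) and in cells 67 to 98 (55.6%). The 255 higher and 160 lower genes became 3115 and 891 against the 7 Gal-negative cells with 0 reads alone, 389 and 284 with *Agrp* below 5 log2RPM, 462 and 414 at a pseudocount of 0.1 RPM, 33 and 6 at 5 RPM, 576 and 317 without cells holding at least 3 markers of some other cell type, and 38 and 10 at a size of 1.5. The lower genes numbered 261 after rescaling by genes detected in at least 90% of cells, beside 172 higher, and 292 after thinning, beside 292 higher. Under the remaining alternatives both counts stayed within 1.5 times. The causes were not tested beyond the smaller sets and the changed scale that these alternatives bring by construction. Of the 24 genes with the largest differences, 23 kept their direction under all 12 alternatives and 10 also kept a size of 1. A kept direction could be close to 0, as for *Fos* (-0.003), *Plcb1* (-0.18) and *Rev3l* (-0.28) at their smallest. These 24 genes were chosen on the same cells, and most alternatives reuse those cells, so the kept directions add no support. Of 47 genes of size 1 or more followed in this way, 43 kept their direction throughout. It turned for *Rgl1* (0.68) and *Pomc* (-0.36) against the 7 cells with 0 reads. It also turned for *Egr1* (0.28) at 1 RPM and for *Nppc* (-0.15) without the cells with other markers. Several smaller differences turned under some alternative too, among them *Hcrtr2* (to -0.19), *Gad1* (to -0.42), *Isl1* (to -0.03), *Sst* (to 0.43) and *Atf3* (to 0.27). No paired analysis was possible because every cell belongs to 1 group. With 1 sample of unknown numbers of animals, no difference has a replicate check, and a difference under the SD over cells can shift with the choice of cells.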
